A study of Mus musculus with 9 samples.

Results

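Prg4, Cytl1, Barx1, Osr2 and Erg are 5 genes of the joint surface and of joint-forming tissue. They were chosen because earlier results of these data had shown them higher in the round layer of the growth plate than in the flat layer, and every probe set annotated to 1 of them alone was taken. This gave 7 probe sets among 45037 that are no control, for 5 of 18193 genes named on the array. Prg4, Cytl1 and Barx1 had 1 probe set each and Osr2 and Erg 2 each. The brighter probe set of a gene stood for it, and all 5 of these lay above the expression filter. Barx1 passed it through the round layer alone, since its mean in the flat layer and its mean in the hypertrophic layer lay below the filter, as did the mean of Cytl1 in the hypertrophic layer.

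The tissue was the proximal tibial growth plate of wild-type Black Swiss mice on the day of birth (age 0 days), and no group received a treatment. Its round, flat and hypertrophic layers were cut by hand from frozen sections of 3 litters, giving 9 arrays. The labels number the replicates of each layer 1 to 3, and a number is taken here as 1 litter; samples with the same number also deviated together from their layers' means. Each sample pooled 18 to 20 tibiae from a litter of 9 to 10 pups, and a layer is defined by its position and shape in the section, with no sort of cells. Messenger RNA was measured on Affymetrix arrays as MAS5 signal, an intensity on a linear scale that ranks samples for a probe set but does not rank genes by abundance.

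Articular cartilage and the growth plate of a newborn long bone form 1 continuous cartilage. The cells nearest the joint descend from the interzone, a band of flattened cells where the joint will open. They make lubricant and later form the articular surface, while deeper cells line up in columns, enlarge and are replaced by bone. Prg4 encodes lubricin, a mucin-like glycoprotein that keeps cartilage surfaces gliding and whose loss in humans causes a childhood joint disease. Cytl1 encodes a small secreted cytokine-like protein of cartilage. Barx1 (a homeobox factor), Osr2 (an odd-skipped zinc finger factor) and Erg (an ETS factor also made by endothelial cells) are transcription factors of joint-forming tissue, and Osr2 acts beside its relative Osr1 in joint formation.

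Libraries and labels were checked first. The collagen X gene Col10a1, which marks hypertrophic cells, rose from a mean signal of 139 ± 111 (SD, n = 3) in round tissue to 664 ± 239 in flat and 11857 ± 918 in hypertrophic tissue. Col2a1, the main cartilage collagen gene, was strong in all layers, at 32059 ± 6936, 21585 ± 6323 and 18514 ± 2424. The round array of litter 1 stood apart in RNA integrity, where the actin probe sets gave a 3′/5′ ratio of 4.25 (1.45 to 2.06 elsewhere) and those of Gapdh 2.59 (0.922 to 1.28 elsewhere). The flat array of litter 3 held the most skeletal muscle signal, a sum of 570135 over 16 muscle markers against 150737 to 375872 on the other arrays. With both arrays left out, only litter 2 held both a round and a flat array, so that the fit leaned on litter 2. Flat minus round (log2) was then -5.68 for Prg4, -5.30 for Cytl1, -4.38 for Barx1, -2.92 for Osr2 and -1.87 for Erg. With all 9 arrays it was -5.42, -5.04, -4.25, -1.96 and -1.91, so that Osr2 alone of the 5 moved by over 1.5-fold. Osr2 also differed most in litter 2, by -3.19 against -1.35 and -1.33 in litters 1 and 3.

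The promoters of Cytl1, Barx1 and Erg were matched in the RefSeq table of promoters (build GRCm38.p6), 3 of the 5 genes, and are shown because these genes are high in the same layer and differ in how far below it they lie in the other layers. Each line gives the 250 bases before a transcription start, read 5′ to 3′ on the gene's own strand, with the letters of any motif found in capitals. For Cytl1 the window is chr5:37735269-37735518 on the plus strand, for Barx1 chr13:48662786-48663035 on the plus strand and for Erg, at the most upstream of its 3 listed starts, chr16:95586594-95586843 on the minus strand.
Cytl1: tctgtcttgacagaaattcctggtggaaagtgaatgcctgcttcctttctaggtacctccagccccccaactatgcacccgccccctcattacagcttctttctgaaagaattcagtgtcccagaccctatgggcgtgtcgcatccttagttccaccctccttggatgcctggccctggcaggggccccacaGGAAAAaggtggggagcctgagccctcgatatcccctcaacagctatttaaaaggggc
Barx1: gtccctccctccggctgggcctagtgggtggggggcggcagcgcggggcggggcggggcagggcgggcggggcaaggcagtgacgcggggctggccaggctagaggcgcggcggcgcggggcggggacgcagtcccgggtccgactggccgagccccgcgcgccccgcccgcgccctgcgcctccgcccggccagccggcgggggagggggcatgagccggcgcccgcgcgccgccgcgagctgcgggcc
Erg: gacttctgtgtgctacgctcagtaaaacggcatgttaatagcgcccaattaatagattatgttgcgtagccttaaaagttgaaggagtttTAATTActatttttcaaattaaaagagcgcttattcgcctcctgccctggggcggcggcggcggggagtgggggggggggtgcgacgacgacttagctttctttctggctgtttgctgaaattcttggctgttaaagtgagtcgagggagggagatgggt

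These windows differ most in base composition. The Barx1 window is 85.6% G and C, that of Cytl1 54.8% and that of Erg 48.8%, beside a median of 52.4% over the 32851 promoters of the table. A search on both strands covered 10 short motifs: TATAAA of the TATA box, TGACGT of the cAMP response element, TGANTCA of AP-1, GTAAACA of forkhead factors, GGAATG of TEAD factors, CCGGAAG of ETS factors, GGAAAA of NFAT, TAATTA of homeobox factors, CAGTAGC of odd-skipped factors and CACGTG of the E-box. Cytl1 held 1 match, GGAAAA beginning 58 bases before the start, letters that 20.4% of all promoters hold. Erg held 1 match, TAATTA beginning 160 bases before the start, found in 4.84% of promoters. Barx1 held 0 of the 10 motifs. Over the other listed Erg starts, the window at chr16:95530366-95530615 held the TATA box, TEAD and NFAT letters, and the window at chr16:95459349-95459598 held the homeobox letters. A match describes letters and shows no binding. No motif was held by all 3 genes, while GGAAAA was held by Cytl1 and by the Erg window at chr16:95530366-95530615.

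The joint lubricant gene Prg4 (probe set 1449824_at; chromosome 1, 150449412 to 150466221 in GRCm38.p6) had round signals of 14144, 13112 and 18770 in litters 1, 2 and 3. Its flat signals were 707, 191 and 256, and its hypertrophic signals 261, 161 and 174. The round arrays stood far above all others, with the lowest round signal 18.6 times the highest flat signal, and the flat and hypertrophic signals overlapped. The fitted log2 difference, flat minus round, was -5.42 ± 0.27 (SE, n = 3 litters), a description of the contrast that chose the genes.

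Cytl1, the secreted cartilage protein (1456793_at; chromosome 5, 37735519 to 37739820), followed Prg4 closely in the round layer, with signals of 14845, 13039 and 20457 and its highest value, like that of Prg4, in litter 3. Its flat signals were 817, 362 and 315 and its hypertrophic signals 163, 141 and 60.2. The 3 layers did not overlap, so that Cytl1 stepped down at each boundary. The log2 difference was -5.04 ± 0.29 (SE) for flat minus round and -6.83 ± 0.29 for hypertrophic minus round, where Prg4 differed by -6.11 ± 0.27.

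The homeobox gene Barx1 (1423342_at; chromosome 13, 48663036 to 48666507) had round signals of 1652, 2105 and 2027. Its flat signals were 125, 56.6 and 59.5 and its hypertrophic signals 53.9, 104 and 53.8. Barx1 was thus high in all 3 round arrays and, in all 6 others, below the median signal of its array. The log2 difference, flat minus round, was -4.25 ± 0.30 (SE), and hypertrophic minus round it was -4.37 ± 0.30. Both differences are set against signals near the floor and depend on the pseudocount: flat minus round was -3.48 with a pseudocount of 104 in place of 26.

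Osr2 and Erg were reduced less outside the round layer than the other genes. Osr2 (1426155_a_at; chromosome 15, 35296098 to 35303305) had round signals of 482, 1010 and 1003, flat signals of 173, 87.9 and 383 and hypertrophic signals of 155, 90.9 and 152. Its mean round signal was 832, against 1928 for Barx1. The lowest flat and hypertrophic signals, both in litter 2, lay below the median signal of their arrays. The floor therefore limits how far Osr2 can differ. The round and flat signals did not overlap, but the lowest round signal was only 1.26 times the highest flat signal. The lowest round signal came from the array with the high 3′/5′ ratios and the highest flat signal from the array with the most muscle signal. The part of either in the result was not tested. Osr2 differed by -1.96 ± 0.35 (log2, SE) between flat and round. With both of those arrays left out it differed by -2.92, in a fit that leans on litter 2. Without the round array of litter 2 it differed by -1.46, the smallest difference when arrays were left out in turn.

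Erg (1440244_at; chromosome 16, 95359169 to 95586600) had round signals of 1630, 1855 and 2524, flat signals of 523, 548 and 450 and hypertrophic signals of 400, 418 and 413. The layers did not overlap, and the hypertrophic values were the tightest of any of the 5 genes, with a mean of 410 ± 9.09 (SD, n = 3). The log2 difference was -1.91 ± 0.18 (SE) for flat minus round and -2.19 ± 0.18 for hypertrophic minus round. Erg and Osr2 therefore had similar log2 differences, while the spread between litters was wider for Osr2.

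**Figure D1:**
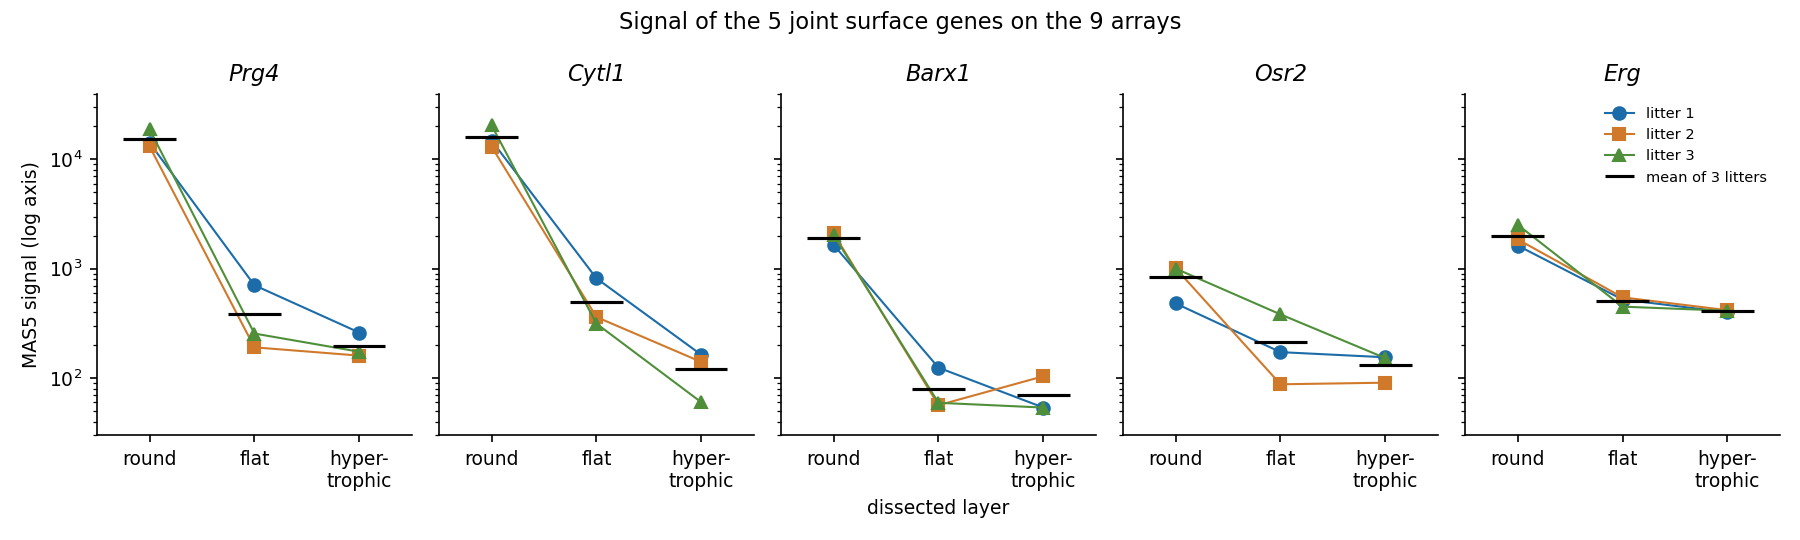
MAS5 signal (log axis) of Prg4, Cytl1, Barx1, Osr2 and Erg in the 3 dissected layers, with 1 line and symbol per litter and a black bar at the mean of 3 litters. The round arrays are the highest for every gene, Cytl1 falls again from the flat to the hypertrophic layer (498 to 121 on average), and the lowest round and highest flat values of Osr2 nearly meet (482 and 383).

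In all 5 genes the 3 flat signals lay below the 3 round signals, as in 13.3% of tested genes (17% of all genes passed the limma threshold in flat minus round and 25.1% in hypertrophic minus round, in either direction), and all 6 signals of the flat and hypertrophic layers lay below the round ones, as in 8.95%. All 5 genes also had hypertrophic signals below the round ones, as in 18.2%. These contrasts chose the genes or share the round arrays with the contrast that did, so nothing is read from these counts. In tissue pieces, fewer cells of a type and less RNA per cell cannot be told apart.

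The share of the round signal that was left in the flat layer of the same litter separated the genes into a deeply and a moderately reduced set, narrowly so for Osr2 in litter 2. The split describes the contrast that chose the genes, and the dimmer round signal of Osr2 left less room above the floor. For Prg4 it was 4.996%, 1.46% and 1.36% in litters 1, 2 and 3, for Cytl1 5.50%, 2.78% and 1.54%, and for Barx1 7.55%, 2.69% and 2.94%. Litter 1 kept the largest share for each of these 3 genes. For Erg the share was 32.1%, 29.5% and 17.8%, and for Osr2 35.9%, 8.70% and 38.1%, with litter 2 the lowest. The order of the litters was therefore not common to the 5 genes. Among the 6 other genes at least 8-fold below the round layer in the flat one, 3 had their highest flat value in litter 1, beside 31.8% of all tested genes, a set chosen after its values were seen.

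**Figure D2:**
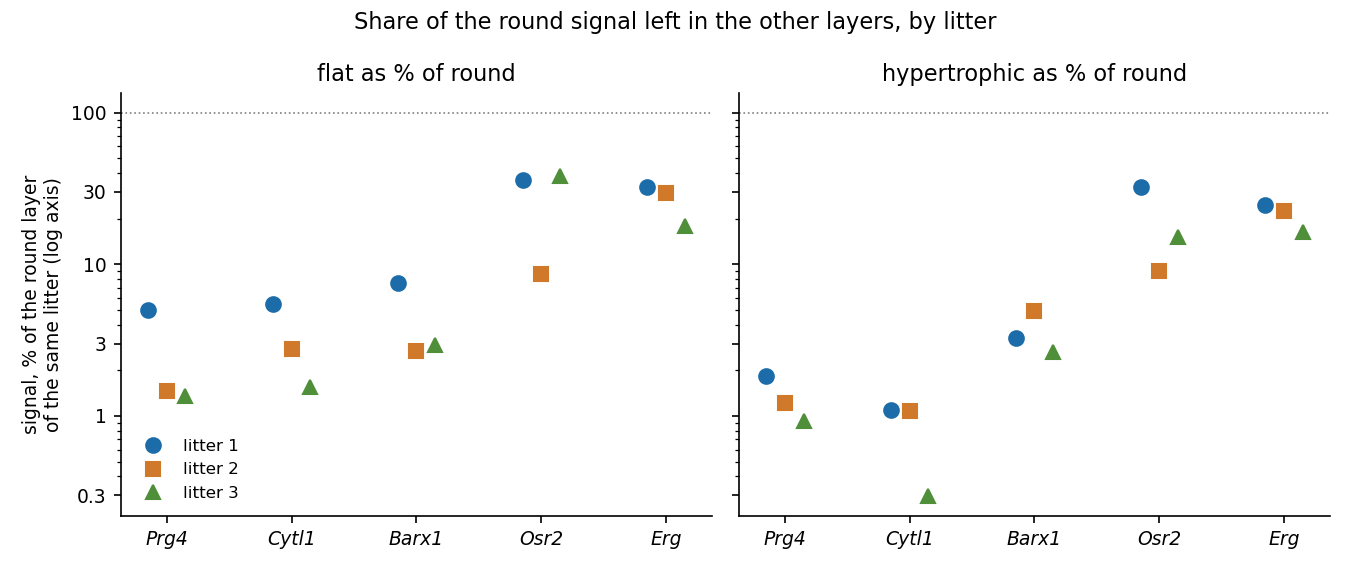
Signal in the flat layer (left) and in the hypertrophic layer (right) as a percent of the round signal of the same litter, on a log axis with the dotted line at 100%, for each gene and litter. Prg4, Cytl1 and Barx1 lie at 7.55% or lower in the flat layer, while Osr2 and Erg reach 38.1% and 32.1%, with Osr2 at 8.70% in litter 2.

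The step from the flat to the hypertrophic layer was not used to choose the genes, although it shares the flat arrays with the contrast that was. Cytl1 fell further in this step, by 1.79 ± 0.29 on the log2 scale (SE, n = 3 litters; adjusted p = 0.00216 by limma with Benjamini-Hochberg adjustment over all tested genes), which is 3.45-fold, and it was lower in all 3 litters. The call held in every alternative tried, with adjusted p between 0.000105 and 0.0199. It is 1 of 5 genes, beside 5.22% of all tested genes that passed as lower in this contrast and 11.3% that passed in either direction. The hypertrophic signals lay below the flat ones with no overlap in Cytl1 and Erg, 2 of 5 genes, beside 9.43% of all tested genes.

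Prg4, Erg and Osr2 did not pass the threshold in that step. Prg4 differed by -0.69 ± 0.27 (log2, SE; adjusted p = 0.134 by limma) with lower values in 3 of 3 litters, and without the round array of litter 1 the same difference had adjusted p = 0.04. Without the flat array of litter 1, where Prg4 was highest, it was -0.24 (adjusted p = 0.605). Erg differed by -0.28 ± 0.18 (adjusted p = 0.363 by limma) and was lower in 3 of 3 litters. Osr2 differed by -0.43 ± 0.35 (adjusted p = 0.513) and was lower in 2 of 3 litters.

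Barx1 differed by -0.12 ± 0.30 in this step (log2, SE; adjusted p = 0.861 by limma). Its mean signals of 80.3 ± 38.5 (SD, n = 3) in flat and 70.6 ± 29.0 in hypertrophic tissue both lay under the filter, a signal of 122, so no order of these layers is read. Whether Cytl1 fell more than the other genes in this step was not tested.

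Muscle signal moved in the same step. Of the 16 skeletal muscle markers 15 rose from round to flat (median log2 difference 1.25), beside 8.39% of all tested genes. From flat to hypertrophic 14 fell (median -1.08), beside 5.22%. The part of muscle in the change of Cytl1 was not tested. Without the flat array of litter 3, which held the most muscle signal, Cytl1 differed by -1.95 (adjusted p = 0.00431 by limma). The other flat arrays still held muscle sums of 357373 and 375872. Without the hypertrophic array of litter 3, which held the most muscle signal of its layer (354811), Cytl1 differed by -1.47 (adjusted p = 0.0193 by limma).

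The layers of each gene were ordered as follows. For Cytl1 the order was round, flat, hypertrophic, with a difference beyond the spread at the step that could be tested. For Prg4, Osr2 and Erg the round layer came first and the flat and hypertrophic layers did not differ past the threshold. For Barx1 the round layer came first and the other layers, both under the filter, have no order.

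Osr2 and Erg each had a dimmer probe set below the expression filter, in which the round layer was also the highest on average. The dimmer Osr2 probe set (1430950_at) gave 32.6, 84.0 and 95.4 in the round, 12.2, 3.51 and 4.66 in the flat and 32.2, 5.24 and 28.3 in the hypertrophic layer. The flat signal lay below the round signal in every litter. Its mean was higher in the hypertrophic than in the flat layer (0.50 on the log2 scale), opposite to the brighter one.

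The dimmer Erg probe set (1425370_a_at) split by litter. Its round signals were 10.3, 189 and 112, its flat signals 8.70, 41.4 and 8.72 and its hypertrophic signals 18.97, 18.5 and 21.3. In litter 1 the round signal lay below the hypertrophic one, while the brighter Erg probe set had 1630 on that same array. This is the array with the high 3′/5′ ratios, and whether that ratio or the position of the probes in the transcript bears on the difference was not tested. When the values of all probe sets of a gene were averaged, Erg differed by -1.68 between hypertrophic and round, against -2.19, and Osr2 no longer passed the filter.

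**Figure D3:**
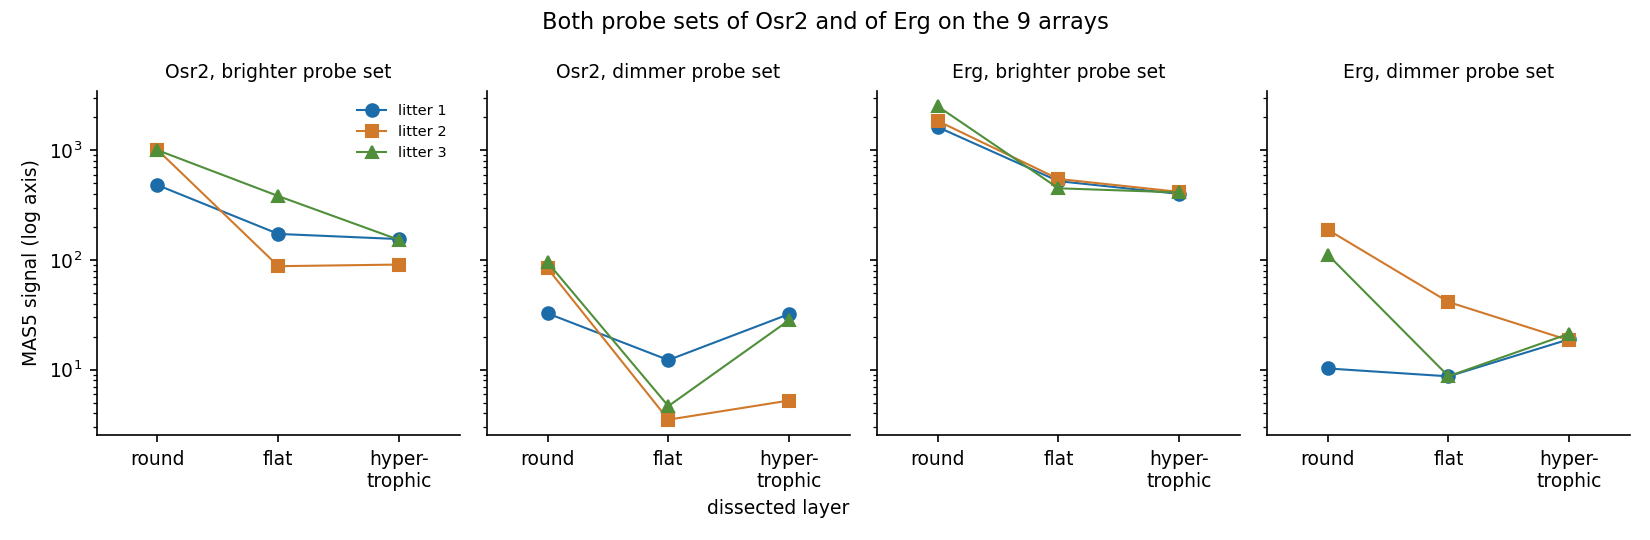
MAS5 signal (log axis) of the brighter and the dimmer probe set of Osr2 and of Erg in the 3 layers, with 1 line per litter. The dimmer Erg probe set reads 10.3 on the round array of litter 1, where the brighter one reads 1630.

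Relatives of the 5 genes were measured as well. Osr1, which shares its role with Osr2, had round signals of 127, 579 and 502, flat signals of 272, 146 and 514 and hypertrophic signals of 164, 227 and 162. Like Osr2 it was lowest in litter 1 among the round arrays and highest in litter 3 among the flat arrays, and its layers overlapped. Its log2 difference, flat minus round, was -0.28 ± 0.44 (SE; adjusted p = 0.722 by limma). With round litter 1 and flat litter 3 both left out it was -1.49 (adjusted p = 0.0182), in a fit that leans on litter 2. Leaving out litter 2 turned its sign, to 0.22 without the round sample and 0.38 without the flat one.

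Fli1, the closest ETS relative of Erg and like it an endothelial gene, averaged a signal of 639 ± 101 (SD, n = 3) in round, 570 ± 137 in flat and 921 ± 139 in hypertrophic tissue. It did not pass the limma threshold in any contrast, with adjusted p of 0.618 for flat minus round, 0.0549 from flat to hypertrophic and 0.0978 from round to hypertrophic. The middle one passed with arrays centred on their medians (0.0466) and without the round array of litter 1 (0.0417) or the flat array of litter 3 (0.043), and with both left out (0.00924), and the last without the flat array of litter 2 (0.0235). Barx2, a relative of Barx1, was at 12.8 to 28.6 on the 9 arrays, below the filter. Barhl1, Barhl2, Vtn and Hpx, the last 2 of which share domains with lubricin, were also below it.

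Because Erg marks endothelial cells as well, 16 endothelial markers were set beside it. Their summed signal ran from 21339 to 22935 in round, from 16934 to 19404 in flat and from 25595 to 27824 in hypertrophic tissue, with 0 values at 0. Between flat and round 4 of 16 were lower and 1 higher, beside 8.64% and 8.39% of all tested genes, with a median log2 difference of -0.30. Between hypertrophic and flat 9 were higher and 1 lower, beside 6.12% and 5.22%. The endothelial cadherin Cdh5 rose by 1.15 ± 0.14 (log2, SE; adjusted p = 0.000298 by limma) in that step and von Willebrand factor, Vwf, fell by 2.62 ± 0.24. The endothelial sum was therefore lower in flat than in round tissue, as Erg was, and highest in hypertrophic tissue, where Erg was lowest. The part of endothelial cells in the Erg signal was not tested.

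Tendon and ligament markers moved in the direction of the 5 genes. Their summed signal over 6 genes ran from 84211 to 111151 in round, from 41644 to 64313 in flat and from 23788 to 24999 in hypertrophic tissue, and 0 values were at 0. Fmod alone gave 72351 of the highest round sum, which came from the array with the high 3′/5′ ratios. Of the 6 genes, 4 fell between round and flat and 4 between flat and hypertrophic, beside 8.64% and 5.22% of all tested genes. Kera, a proteoglycan gene, was among them in both steps (-1.90 ± 0.22 and -1.67 ± 0.22, log2 difference and SE). Scx passed in neither step (adjusted p = 0.516 and 0.0863 by limma). Synovial and fibroblast markers, 11 in all, did not fall as a group. Between round and flat 4 of 9 tested rose and 2 fell, beside 8.39% and 8.64% of all tested genes. The 2 that fell were Col14a1 (-1.18 ± 0.13, log2 difference and SE) and Pdpn (-0.95 ± 0.12). From flat to hypertrophic 2 rose and 1 fell, Col14a1 (-1.62 ± 0.13), beside 6.12% and 5.22%. The sums of the 11 were 46182 to 64192, 43876 to 59531 and 45558 to 55080 in round, flat and hypertrophic tissue. The part of these tissues in the signal of the 5 genes was not tested.

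Other genes of joint formation were mostly higher in the round layer. The list of 24 genes, in which the 5 genes themselves do not stand, had 21 named on the array and 18 tested. It was drawn up with earlier results of these data known, so its counts are no independent support. Of these 18, 12 fell and 0 rose between round and flat (limma, adjusted p under 0.05), with a median log2 difference of -0.76, beside 8.64% of all tested genes lower, 8.39% higher and a median of -0.01. Of 14 chondrocyte markers 5 fell and 1 rose in this contrast, with a median of -0.25. Whether the list differs from cartilage genes at large was not tested. Bmp2, a bone morphogenetic protein, had a log2 difference of -1.96 ± 0.16 (SE), the joint growth factor Gdf5 of -1.70 ± 0.25, the transcription factor Trps1 of -1.49 ± 0.15, and Has2, which makes hyaluronan, of -1.39 ± 0.43.

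Adjusted p for these 4 lay between 8.44e-06 and 0.0426 by limma. Has2 was close to the threshold. It was at -2.43 with round litter 1 and flat litter 3 both left out, in a fit that leans on litter 2. It was not called in 9 of 18 alternatives. Among them were leaving out any 1 of the round arrays, the flat array of litter 1 or 2 or the hypertrophic array of litter 1. The 6 list members that did not pass in this contrast were Osr1, Jun, Cd44, Cux1, Dcx and Col3a1.

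From flat to hypertrophic the joint formation genes parted. Of 18, 3 fell and 2 rose (median -0.13), beside 5.22% lower and 6.12% higher among all tested genes. Dcx, a microtubule protein of migrating neurons that is also made in joint cartilage, fell (-2.05 ± 0.43, log2 difference and SE), as did the Wnt modulator Sfrp2 (-1.68 ± 0.14) and the hind limb factor Pitx1 (-1.34 ± 0.17), while Bmp2 rose by 1.36 ± 0.16 and the ligand Wnt4 by 1.16 ± 0.22. Without litter as a block 1 fell and 1 rose, and the call of Dcx was also lost without the flat array of litter 1 or the hypertrophic array of litter 1 or 2. Between hypertrophic and round 12 of 18 were lower and 0 higher, beside 12.7% and 12.4% of all tested genes, led by Sfrp2 (-2.85 ± 0.14), Dcx (-2.16 ± 0.43), Pitx1 (-2.11 ± 0.17) and Gdf5 (-1.55 ± 0.25). The median of the 18 was -0.96. Of 14 chondrocyte markers 9 were lower and 0 higher in that contrast, with a median of -0.97.

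Bmp2 and Gdf5 are given by array as examples of the joint formation genes. For Bmp2 the round signals were 4946, 5400 and 4221, the flat signals 1697, 1137 and 950 and the hypertrophic signals 3390, 3893 and 2457. Bmp2 was lowest in the flat layer with no overlap, whereas Prg4 and Cytl1 were lowest on average in the hypertrophic layer. Gdf5 had round signals of 653, 681 and 748, flat signals of 280, 226 and 114 and hypertrophic signals of 257, 227 and 182, so that its lower layers overlapped as those of Prg4 did.

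The surface zone list holds 25 genes drawn up for the lubricated upper layer of articular cartilage, all named on the array and 24 tested. Whether each gene is particular to that layer was not tested. This list too was drawn up with earlier results of these data known, so its counts are no independent support. Of these 24, 14 fell and 0 rose between round and flat, with a median log2 difference of -0.86, beside 8.64% of all tested genes lower and 8.39% higher. Of 14 chondrocyte markers 5 fell and 1 rose, with a median of -0.25. Vit, vitrin of the extracellular matrix, had a log2 difference of -2.61 ± 0.28 (SE), dermatopontin, Dpt, of -2.54 ± 0.28, the transcription factor Creb5 of -2.39 ± 0.21 and the hyaluronan synthase Has1 of -2.01 ± 0.34, with adjusted p between 1.4e-05 and 0.00151 by limma. Without round litter 1 and flat litter 3 Dpt was at -3.20, in a fit that leans on litter 2. Creb5, known as a regulator of Prg4 in the superficial zone, had round signals of 1748, 1734 and 1545, flat signals of 363, 204 and 357 and hypertrophic signals of 258, 129 and 245. Its round arrays stood apart, and its other layers overlapped.

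From flat to hypertrophic 10 of the 24 surface zone genes fell and 4 rose (median -0.49), beside 5.22% and 6.12% of all tested genes. Ucma, a small cartilage matrix protein, fell (-2.22 ± 0.18, log2 difference and SE), as did Ecrg4, a secreted peptide precursor (-1.86 ± 0.13), and Thbs4, a thrombospondin (-1.48 ± 0.20), while Col22a1, a collagen of tissue junctions, rose by 1.80 ± 0.16. The other 3 that rose were Nfatc1, Ugdh and Smad3, and the call of Smad3 was lost in 11 of 18 alternatives (adjusted p up to 0.213 by limma). The number that fell was 6 without litter as a block and 6 without the variance trend, 5 without the flat array of litter 1 and 6 without the flat array of litter 3 or the hypertrophic array of litter 1 or 2. The number that rose was 2 without the hypertrophic array of litter 2 or 3 and 2 with probe sets averaged.

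Between hypertrophic and round 16 of the 24 were lower and 1, Col22a1 (1.81 ± 0.16, log2 difference and SE), was higher, beside 12.7% and 12.4% of all tested genes. The median of the 24 was -0.99. Of 14 chondrocyte markers 9 were lower and 0 higher, with a median of -0.97. Among the 24, Ucma (-3.91 ± 0.18), Dpt (-3.83 ± 0.28), Thbs4 (-3.30 ± 0.20) and Creb5 (-2.90 ± 0.21) had the largest falls. With probe sets averaged Ucma was at -2.91, behind Dpt and Thbs4, and Creb5 at -2.10. The FoxO factors Foxo1 and Foxo4 did not pass the threshold in any contrast and Foxo3 passed only between hypertrophic and round.

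**Figure D4:**
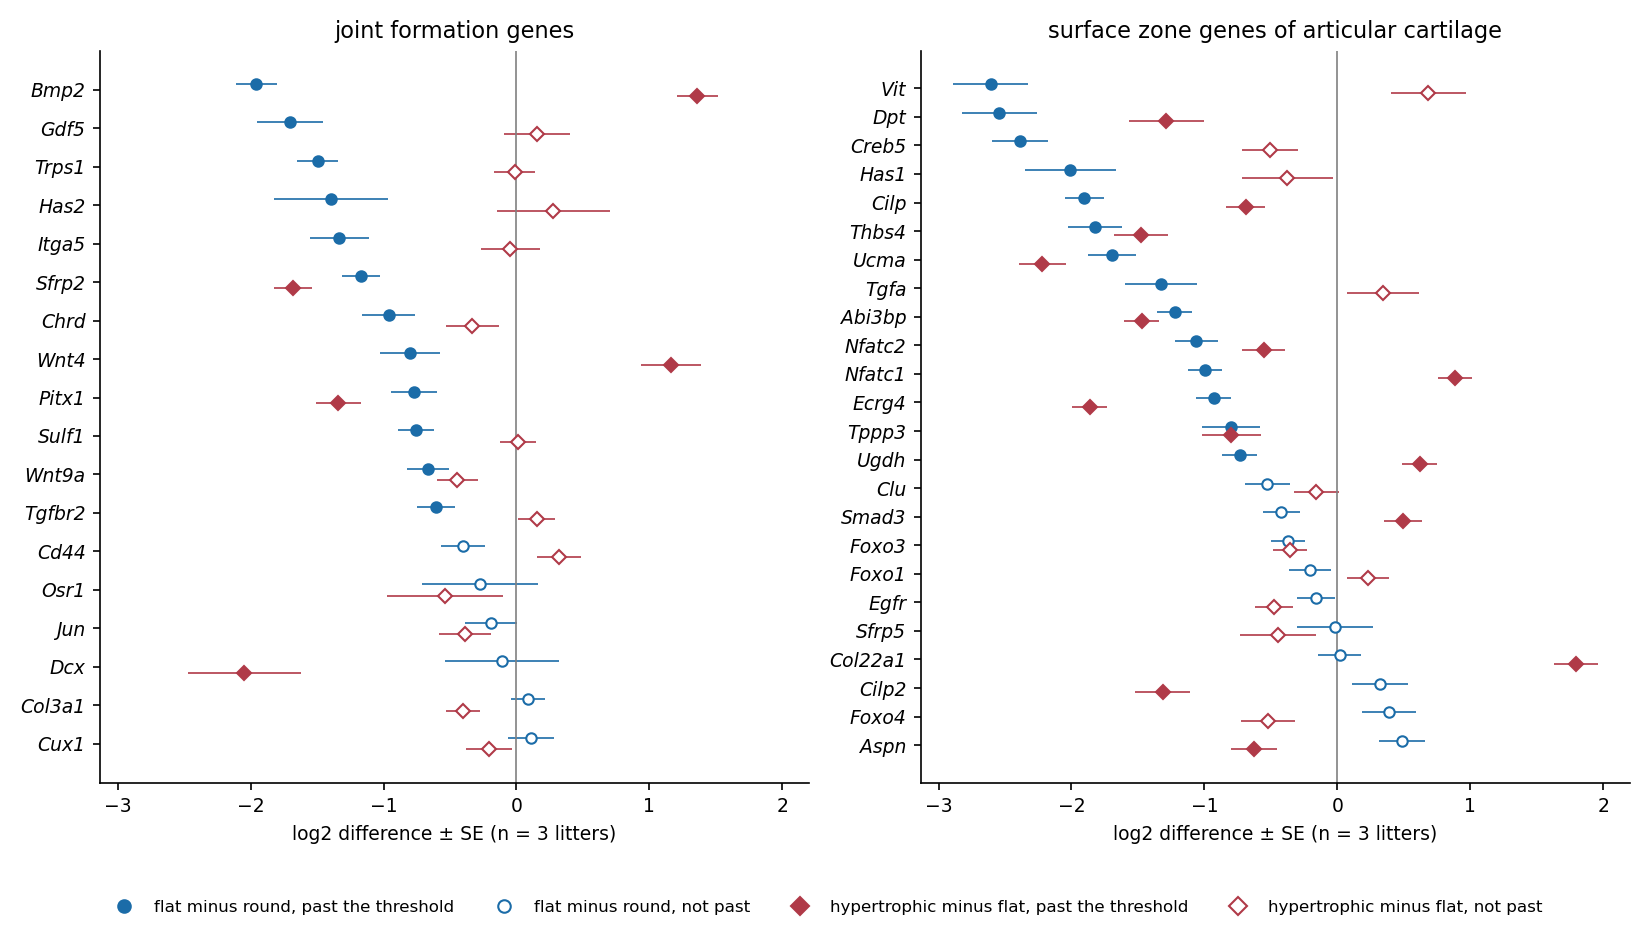
Log2 difference with SE (n = 3 litters) of the tested joint formation genes (left, 18) and surface zone genes (right, 24), for flat minus round (circles) and hypertrophic minus flat (diamonds), with filled symbols past the limma threshold. In flat minus round every filled circle lies below 0, 12 on the left and 14 on the right.

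The genes nearest to each of the 5 in profile were found among tested genes by the root mean square difference over the 9 arrays between log2 values centred on each gene's own mean. Erg had the nearest neighbours: Sned1, a matrix protein gene, at 0.15, Mtmr11 at 0.20, Ndufa4l2 at 0.21 and Moxd1 at 0.22, beside a root mean square of 0.99 for Erg itself about its mean. Sned1 averaged a signal of 2146 ± 191 (SD, n = 3) in round, 595 ± 80.1 in flat and 501 ± 37.5 in hypertrophic tissue. For Osr2 the nearest were Stxbp6 (0.37), the phosphatase gene Dusp14 (0.44), Clic5 (0.44) and Medag (0.46), beside 1.17 for Osr2 itself.

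Prg4, Cytl1 and Barx1 shared their 3 nearest genes: Adgrg2, an adhesion G protein-coupled receptor, Smoc1, a matrix protein that binds calcium, and Gm17455. These lay at 0.49, 0.56 and 0.69 from Barx1, at 1.12, 1.18 and 1.31 from Prg4 and at 1.29, 1.34 and 1.37 from Cytl1. The fourth nearest was the annexin gene Anxa8 for Prg4 (1.36), the hedgehog co-receptor gene Cdon for Cytl1 (1.46) and Sema3e, a guidance ligand, for Barx1 (0.72). Adgrg2 averaged a signal of 2985 ± 221 (SD, n = 3) in round, 269 ± 5.36 in flat and 169 ± 32.0 in hypertrophic tissue, a log2 difference of -3.35 between flat and round. Prg4 and Cytl1 were nearer to each other, at 0.55, than either was to any other tested gene outside the 5, and Osr2 and Erg were 0.57 apart. The distance was not scaled to the size of a gene's differences, so strongly reduced genes are drawn together by size. That size includes the contrast that chose the 5 genes, so nothing on their regulation is read from shared neighbours.

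**Figure D5:**
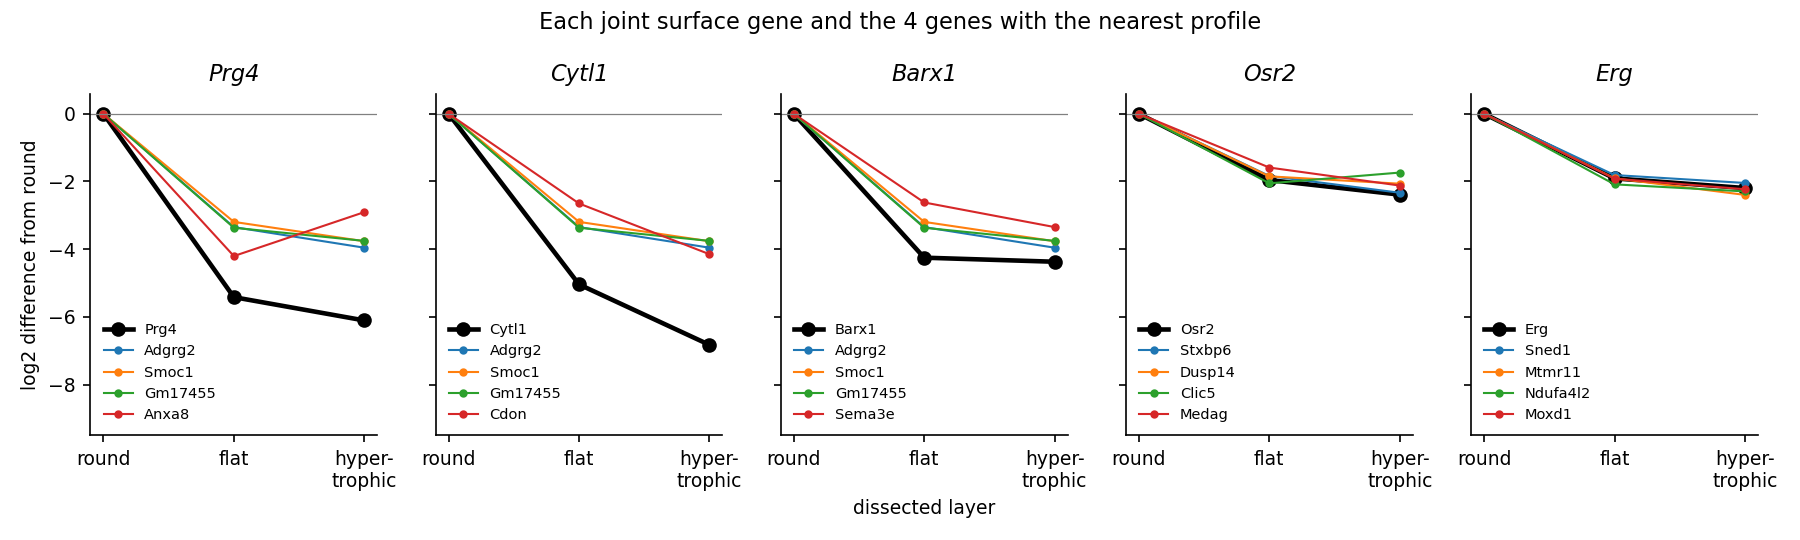
Fitted log2 difference from the round layer of each of the 5 genes (black) and of the 4 tested genes with the nearest profile (colours) in the flat and hypertrophic layers. The neighbours of Erg overlie it, while those of Prg4 and Cytl1 lie less far below the round layer.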

How the data were processed

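Each of the 9 samples (round, flat and hypertrophic layers of litters 1 to 3) was hybridised to 1 array. The intensity values were deposited by the authors as MAS5 signals, which the submitters' processing notes tie to Affymetrix Expression Console; its version is not given in the sources used here. The mean without the highest and lowest 2% of values is 500.003 on each array, as after scaling. Median signals were 123 to 152; precision is limited by having 3 arrays a layer. No pair of arrays was identical. Detection calls were not used here.

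Of 45037 probe sets that are no control, 34945 had 1 gene symbol in the platform annotation, 932 several and 9160 none, and 34741 were renamed through gene identifiers of RefSeq GRCm38.p6. Signals were transformed as log2(signal + 26), the 20th percentile of all values, so differences of dim genes are understated. The probe set with the highest mean stood for a gene, and 11313 genes with a mean above the median probe set (7.21) were tested. Layers were compared with limma 3.58.1 in R 4.3.3 with litter as a block, a variance trend and Benjamini-Hochberg adjustment (threshold 0.05). The fit was checked on simulated data for flat minus round only, with large shifts, so smaller differences were not covered. "Rose" and "fell" are used of genes past this threshold, and of the 5 genes only for hypertrophic minus flat. The labels name 3 litters as the triplicates but not which litter each number is; deviations from layer means correlated at 0.167 to 0.517 in the 9 pairs of a litter, against -0.434 to 0.0815 in 18 pairs of different litters and layers.

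Members, lists and tests were chosen with earlier results of these data known. Named genes were the 5 genes, the 4 nearest to each, up to 4 per list and contrast with the largest difference past the threshold, the relatives, up to 2 markers per list, Col10a1 and Col2a1. Other genes were named after their values were seen: those completing a count, the list members that did not pass, Bmp2 and Gdf5 by array, and the FoxO factors. The lists of chondrocyte and hypertrophic markers served as label checks, and the chondrocyte list also stands beside the joint formation and surface zone counts. Of 14 chondrocyte markers 5 were lower and 1 higher in flat than in round, beside 8.64% and 8.39% of all tested genes. Of 6 tested hypertrophic markers 6 were higher. Alternatives were other pseudocounts (6.5 and 104), median centring, quantile normalization, no filter, averaged probe sets, no litter block, no variance trend and arrays left out.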

Additional observations from a re-analysis of the deposited data

How the results depend on the processing

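Over 18 alternatives, the 5 genes kept their direction in flat minus round and in hypertrophic minus round wherever they passed the filter (Osr2 did not with probe sets averaged, nor did Dcx). With a pseudocount of 104 Barx1 differed by -3.48 in flat minus round and -3.55 in hypertrophic minus round, and with 6.5 by -4.70 in the latter; Erg differed by -1.68 with probe sets averaged. In hypertrophic minus flat, leaving out 1 array gave -0.93 to -0.24 for Prg4 and -0.42 to 0.27 for Barx1 (under the filter in both layers), and leaving out round litter 1 and flat litter 3 together gave -0.80 for Prg4 (adjusted p = 0.0274 by limma, against 0.04 to 0.605 without 1 array) and 0.040 for Osr2 (sign turned, adjusted p = 0.954).

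Without the replicate block for litter, the joint formation genes that fell and rose in hypertrophic minus flat numbered 1 and 1, and 6 surface zone genes fell; the block changed no call of the 5 genes. Over all genes the calls without it were 935, 553 and 1824, against 1926, 1283 and 2840 with it (flat minus round, hypertrophic minus flat, hypertrophic minus round). The fall of 6 surface zone genes was also the count without the variance trend, and with 1 array left out the counts were 5 to 12 lower and 2 to 5 higher, and 2 higher with probe sets averaged. Surface zone genes that rose from round to flat numbered 0 to 1 without 1 array, and 1 with probe sets averaged or with both arrays left out together. Joint formation genes higher in hypertrophic than in round numbered 0 to 1 without 1 array and 1 without both. The cause of these shifts was not tested. With 1 array left out, flat minus round ran from -0.86 to 0.38 for Osr1 and from -0.36 to 0.15 for Fli1; the signs turned without flat litter 2 and, for Osr1, without round litter 2 (0.22). With arrays centred on their medians 39.7% of calls in flat minus round were higher in place of 49.3%, and 65.2% in place of 53.9% in hypertrophic minus flat. Signals near the floor limit Barx1 in the flat and hypertrophic layers, and Osr2 in the same layers of litter 2.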
